A study of Mus musculus with 2 samples.

Results

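Gpnmb-high macrophages of the newborn mouse tooth germ were 109 cells, 66 in the control library and 43 in the deletion library, among 28918 cells that passed the cell filter. The filter kept barcodes with at least 500 genes and at most 20% of their UMIs (unique molecular identifiers, each standing for 1 captured transcript) from mitochondrial genes. A cell was taken as a macrophage where the complement genes C1qa, C1qb and C1qc together held at least 20 of every 10000 UMIs, where Csf1r, Mrc1, Adgre1 and Ms4a7 together had at least 2 UMIs, and where the osteoclast genes Acp5 and Ctsk held fewer than 20 of every 10000. This gave 548 macrophages in control and 499 in deletion cells. Those with at least 10 Gpnmb UMIs per 10000 are called Gpnmb-high, and the other 482 and 456 are called Gpnmb-low. The members were thus chosen by their measured levels of Gpnmb and the other genes of the rule, so every difference between Gpnmb-high and Gpnmb-low cells given here is a description and has no test.

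The cells came from the germs of the lower first molar of newborn C57BL/6 mice, dissociated with collagenase and dispase, freed of red blood cells by lysis and of dead cells on magnetic beads, and captured on the BD Rhapsody system. Control mice carried floxed Edar alleles (Edar fl/fl) and no Cre, and mice of the other group carried K14cre on the same floxed alleles (K14cre;Edar fl/fl). K14cre is driven by a keratin 14 promoter, which is active in epithelium, so the cells in which Edar, the receptor for ectodysplasin, is targeted are epithelial. Each group was 1 library, so no difference between the groups has a check against the spread between animals, and all intervals cover counting error only.

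Tissue macrophages take up dying cells, red cells and debris and break them down in lysosomes. Gpnmb encodes a transmembrane glycoprotein of late endosomes and lysosomes that is made by macrophages loaded with lipid or debris and is controlled by the MiT/TFE transcription factors in several cell types. Haem from ingested red cells is cleaved by haem oxygenase 1, the product of Hmox1, and the iron that is released is stored in ferritin, built from the Fth1 and Ftl1 chains.

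Libraries differed in depth. The control library held 73375441 UMIs in 13990 barcodes and the deletion library 62158879 in 16029. The median Gpnmb-high macrophage had 13009.5 UMIs in the control against 8645 for Gpnmb-low cells, and 6786 against 6182 in the deletion library. Scrublet, a program that marks likely doublets, marked 0 of the 66 and 1 of the 43 Gpnmb-high cells. The libraries shared 4 barcodes, none of them a Gpnmb-high macrophage. Edar had 1 UMI in the control Gpnmb-high cells and 0 in those of the deletion library, against 434 and 214 UMIs in all cells outside the macrophage and osteoclast gates, and the files do not show whether the counted part of the transcript lies in the floxed segment.

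Gpnmb itself lies on chromosome 6 (chr6:49036546-49070929, plus strand, mm10). Its level in the Gpnmb-high cells, with UMIs summed over the cells of a library, was 5221 UMIs per 1000000 (CPM; 95% Poisson interval 5069 to 5375) in control and 4508 CPM (4274 to 4752) in deletion cells. In Gpnmb-low cells it was 57.3 and 62.0 CPM, in the osteoclast gate (cells past the Acp5 and Ctsk limit and under the C1q limit) 38.6 and 73.5 CPM, and in all other cells 10.0 and 4.62 CPM. The 66 control cells held 82.7% of all Gpnmb UMIs of the kept cells of their library, and the 43 deletion cells held 73.5%. Gpnmb-high macrophages made up 0.491% and 0.278% of kept cells. The rule chose them by their Gpnmb level, so their large part of the Gpnmb UMIs describes that choice.

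Gpnmb per cell ran from 10.3 to 145 UMIs per 10000 with a median of 42.2 in control cells, and from 10.1 to 176 with a median of 30.9 in deletion cells. The nearest cells outside the limit stood at 9.70 and 9.68 per 10000. Between 5 and 10 lay 21 control and 16 deletion cells and between 10 and 20 lay 13 and 16 cells, while 395 and 369 macrophages had no Gpnmb UMI at all.

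Levels of the genes of the rule describe how the cells were chosen. C1qa, a subunit of complement C1q that marks tissue macrophages, was at 976 CPM in Gpnmb-high and 883 CPM in Gpnmb-low control cells, and at 931 and 981 CPM in the deletion library. Csf1r, the receptor for colony stimulating factor 1, was lower at 637 against 1243 CPM in the control and 536 against 1056 CPM in the deletion library. The label was checked on the 7 macrophage markers that the rule did not use. They summed to 6540 CPM in control and 5933 CPM in deletion Gpnmb-high cells, and to 6035 and 5348 CPM in Gpnmb-low cells. In the osteoclast gate they summed to 4062 and 3234 CPM, and in all other cells to 128 and 110 CPM. The sum thus sets macrophages apart from all other cells far more than from the osteoclast gate. Against Gpnmb-low cells 5 of the 7 stood lower in each library, with Cd68 among those higher in both.

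Markers of other cell types were summed in the same way. The 16 osteoclast markers other than Acp5 and Ctsk summed to 897 and 928 CPM, against 25819 and 22308 CPM in the osteoclast gate and 651 and 657 CPM in Gpnmb-low cells, and Dcstamp, Oscar and Siglec15 were at 0 in both libraries. The 8 mast cell markers summed to 0 and 3.25 CPM, the 10 endothelial markers to 31.3 and 45.4 CPM, and the 10 mesenchymal markers to 1005 and 721 CPM, below the 1825 and 1638 CPM of Gpnmb-low cells. The 10 monocyte markers summed to 240 and 341 CPM with Chil3 at 0, and most of this was Gsr, a glutathione reductase that other cells also make. Among epithelial markers Amelx, the enamel protein amelogenin, reached 56.7 CPM in the control cells, 85.7% of it in 1 cell.

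Several of these sums were higher than in Gpnmb-low cells. Mural markers summed to 277 and 162 CPM against 71.4 and 51.6 CPM, most of it Cspg4, a proteoglycan of pericytes, which was called higher in both libraries at 264 against 21.0 CPM and 130 against 20.7 CPM. Lymphocyte markers summed to 39.4 and 35.7 CPM against 6.45 and 10.7 CPM, and neutrophil markers to 42.8 and 58.4 CPM against 35.8 and 21.0 CPM. The odontoblast and osteoblast list summed to 5522 and 6920 CPM against 251 and 278 CPM, nearly all of it Spp1 in Gpnmb-high cells. Spp1 was its only member called higher in both libraries. Of its measured members 7 of 8 in control and 4 of 7 in deletion cells stood lower than in Gpnmb-low cells. An alternative left out cells with at least 20 UMIs per 10000 of the markers of any other cell type. Osteoclast, monocyte, dendritic and erythroid markers and Spp1 were not used for it. It gave 119 genes called higher in Gpnmb-high cells and 156 lower in both libraries, in place of 116 and 135. Of these, 111 and 124 were shared. Cells under that limit stayed in, and the part of other cell types in their counts was not tested.

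Gpnmb-high cells were 12.0% of control macrophages (66 of 548, exact Clopper-Pearson 95% interval 9.44 to 15.1) and 8.62% of deletion macrophages (43 of 499, 6.31 to 11.4). The share was 3.43 percentage points lower in the deletion library, and the intervals of the libraries overlap. Among cells with Xist and no Y-linked UMI, which come from females, the share was 18.4% (21 of 114) for the control and 6.49% (12 of 185) for the deletion library. Their intervals, 11.8 to 26.8 and 3.40 to 11.1, do not overlap but cover counting error only. Among cells with Y-linked UMIs and no Xist the share was 9.86% (28 of 284, 6.65 to 13.9) and 8.33% (14 of 168, 4.63 to 13.6). The difference between libraries was thus larger among the Xist cells than among the Y-linked cells, and whether these shares vary from pup to pup was not tested.

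Genes that differed between Gpnmb-high and Gpnmb-low macrophages were called, in each library by itself, where the level reached 50 CPM in 1 of the 2 groups, the ratio of CPM + 5 was at least 2-fold and a conditional binomial interval (95%) around the ratio of counts left out 1. By this rule 175 of 3549 genes (4.93%) were called higher and 306 (8.62%) lower in control Gpnmb-high cells, and 180 of 3626 (4.96%) and 257 (7.09%) in deletion cells. Of 3350 genes tested in both libraries, 116 (3.46%) were called higher and 135 (4.03%) called lower in both, with the genes of the rule left out. The log2 ratios of the libraries had a Pearson correlation of 0.84 across these 3350 genes, which are not independent replicates. All 153 genes called higher in the control that were tested in both were also above 0 in the deletion library, and 279 of the 286 called lower were below 0. With levels scaled by the median count ratio in place of the total, which takes a median shift of -0.20 in control and -0.15 in deletion cells out of the log2 ratios, 161 genes were higher and 82 lower. Higher calls were then 66.3% of all calls in place of 46.2%.

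**Figure D1:**
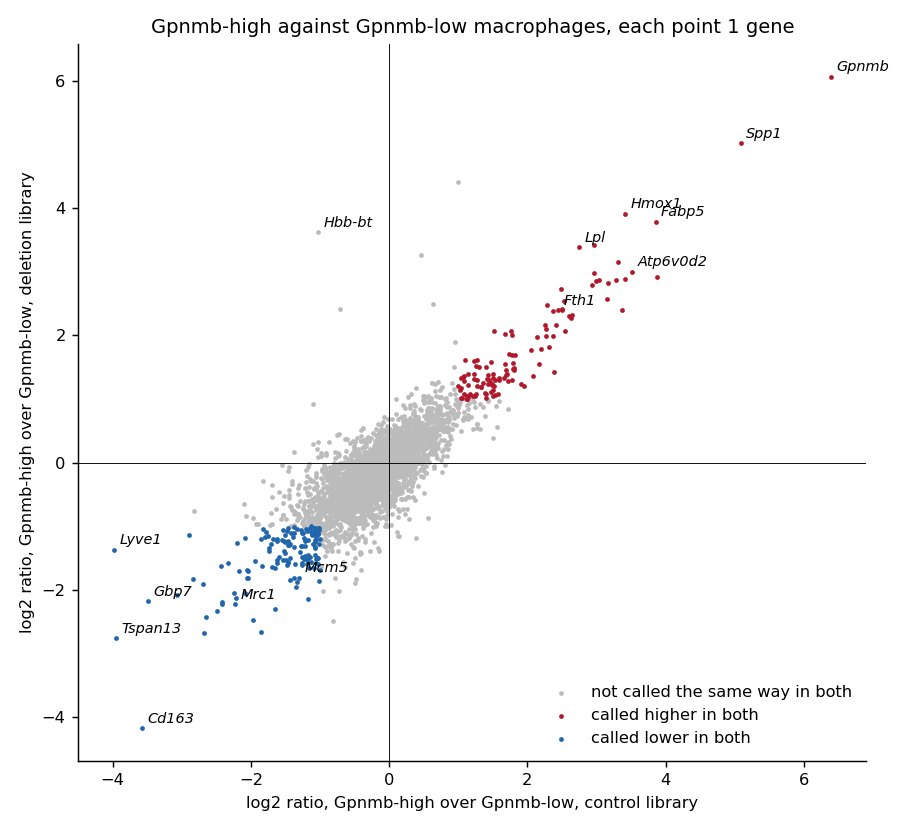
Log2 ratio of Gpnmb-high over Gpnmb-low macrophages in the control library (horizontal) and the deletion library (vertical), 1 point for each of the genes tested in both, computed from summed CPM + 5. Genes called higher in both libraries (red) and lower in both (blue) lie along the diagonal, from Cd163 to Spp1, Hbb-bt stands off it, and genes of the rule such as Gpnmb and Mrc1 are drawn but not counted.

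Genes of haem breakdown and iron storage were high in level. Hmox1 stood at 1077 CPM in Gpnmb-low and 11491 CPM in Gpnmb-high control cells, and at 622 and 9441 CPM in the deletion library, a ratio of 10.7 (10.3 to 11.1) and 15.2 (14.3 to 16.1). Its median per cell was 123 and 109 UMIs per 10000, against 3.63 and 3.21 in Gpnmb-low cells. All other cells held 41.5 and 36.9 CPM and the osteoclast gate 56.4 and 90.5 CPM, so both groups of macrophages were above every other gate.

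Ferritin followed. Fth1 rose from 7817 to 42622 CPM in control and from 6826 to 36088 CPM in deletion cells, and Ftl1 from 4578 to 22107 and from 3996 to 17140 CPM. Both genes have near-identical processed copies in the mouse genome, so the split of reads between Fth1 or Ftl1 and their copies is uncertain.

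Of 14 genes of the haem and iron list that were tested in both libraries, among 18 measured, 5 were called higher and 2 lower, where 3.46% of all genes tested were called higher and 4.03% lower. The list had a median log2 ratio of 0.52 and 0.70 against -0.20 and -0.14 over all genes measured. Slc48a1, which carries haem out of the phagolysosome, was at 661 against 110 CPM and 581 against 95.7 CPM. Slc11a1, an exporter of iron from the phagosome, was at 173 against 56.9 and 166 against 35.8 CPM. The pair called lower were Cd163, the receptor that takes up haemoglobin bound to haptoglobin, and Ncoa4, which delivers ferritin to lysosomes for breakdown. Slc40a1, the iron exporter ferroportin, was at 142 against 87.9 CPM and 133 against 53.4 CPM and was not called higher in both. The list summed to 78826 against 15401 CPM in control and 65211 against 13246 CPM in deletion cells.

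Haemoglobin transcripts themselves were looked at after their values were seen. At least 1 UMI of Hba-a1, Hba-a2, Hbb-bs or Hbb-bt was present in 26 of 66 control Gpnmb-high cells (39.4%, interval 27.6 to 52.2) and in 9 of 43 deletion cells (20.9%, 10.0 to 36.0). Gpnmb-low macrophages had such a UMI in 5.19% and 3.73% of cells, the osteoclast gate in 0 of 37 and 4 of 106 cells, and all other cells in 12.0% and 5.39%. Gpnmb-high macrophages were thus the group with the highest share in each library.

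Gpnmb-high macrophages also had the highest share at equal depth. With each cell thinned to 1900 UMIs, and 2 and 4 shallower Gpnmb-high cells left out, the share was 23.4% and 17.9% in Gpnmb-high, 1.75% and 0.928% in Gpnmb-low macrophages, 0 of 34 and 0 of 101 cells in the osteoclast gate, and 5.92% and 2.78% in all other cells. At least 10 haemoglobin UMIs were found in 13 control and 6 deletion Gpnmb-high cells. The richest of them held 106 and 60, whereas 1722 of the 1920 haemoglobin UMIs of the control Gpnmb-low cells lay in 1 cell. Haemoglobin UMIs of the Gpnmb-high cells numbered 479 for the control and 213 for the deletion library. Free RNA from red cells can give haemoglobin UMIs in any cell, and its part in these counts was not tested.

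**Figure D2:**
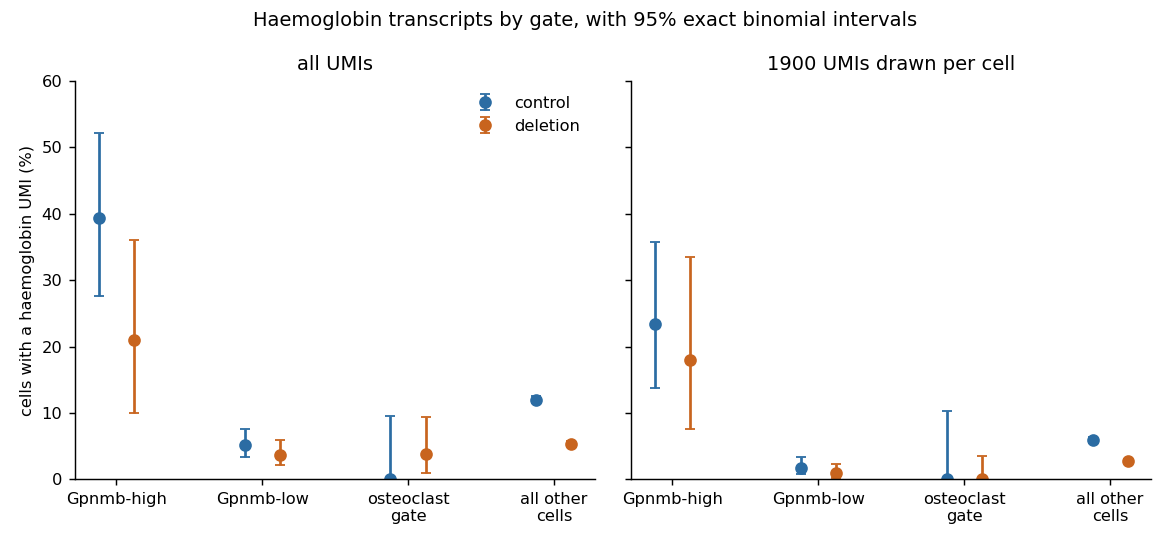
Share of cells with at least 1 haemoglobin UMI by gate and library, with exact 95% binomial intervals, for all UMIs (left) and for 1900 UMIs drawn from each cell (right). Gpnmb-high macrophages have the highest share in both libraries, at 39.4% and 20.9% of cells with all UMIs and at 23.4% and 17.9% after thinning.

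Gpnmb-high cells with haemoglobin UMIs had more Hmox1, and also more Gpnmb and Fth1. Gpnmb was at 6009 CPM with and 4656 CPM without them in control, and at 7687 and 3136 CPM in deletion cells. Fth1 was at 48348 and 38520 CPM in control and at 52643.5 and 28942.5 CPM in deletion cells. Spp1 was lower with them in control, at 4938 and 5845 CPM, and higher in deletion cells, at 7966.5 and 6417 CPM. Hmox1 was at 13513 CPM in the 26 control cells with haemoglobin UMIs and 10042 CPM in the 40 without, and at 12822 CPM in the 9 deletion cells with and 7983 CPM in the 34 without. Median depth moved with this split, at 13509 against 11833.5 UMIs in control and 10644 against 5880.5 in deletion cells. The part of depth and of the Gpnmb level in these differences was not tested.

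The lipid-associated macrophage list, which also holds genes with other roles, had the most higher calls. Of its 18 members tested in both libraries, among 20 measured, 11 were called higher (3.46% of all genes) and 0 lower, with medians of 1.42 and 1.32 on the log2 scale. Spp1, which encodes the secreted phosphoprotein osteopontin, had the largest ratio of all genes outside the rule by the smaller of its libraries, at 5466 against 156 CPM in control (ratio 35.1, 32.3 to 38.2) and 6884 against 207 CPM in deletion cells (33.3, 30.4 to 36.6). Odontoblasts and bone-forming cells make osteopontin too, and their part in the Spp1 UMIs of Gpnmb-high cells was not tested. All other cells, pooled over every type, stood at 143 and 141 CPM, with a Spp1 UMI in 8.74% and 5.60% of them.

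Spp1 was uneven among Gpnmb-high cells. It had no UMI in 16 of 66 and 11 of 43 cells, and reached 287 and 390 UMIs per 10000 in the richest. Fabp5, a fatty acid binding protein of the cytosol, was more even, with no UMI in 2 of 66 and 3 of 43 cells. It was at 5152 against 351 CPM in control and 4846 against 346 CPM in deletion cells.

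Fabp4, a related binding protein, was at 191 and 175 CPM, with log2 ratios of 3.29 and 2.87 over Gpnmb-low cells. Cd36, a scavenger receptor for oxidised lipid and apoptotic cells, was at 2117 against 230 CPM (ratio 9.19) and 1464 against 201 CPM (7.27). Lpl, the lipase that frees fatty acids from lipoproteins, was at 477 against 66.6 CPM and 558 against 48.9 CPM. Trem2, a lipid-sensing receptor, and Apoe, a carrier of cholesterol, rose by less, Trem2 from 306 to 892 CPM and from 296 to 737 CPM and Apoe from 1769 to 3851 CPM and from 1679 to 3375 CPM. Cd9, a tetraspanin, Lgals3, the lectin galectin 3, Plin2, a coat protein of lipid droplets, and Pld3, a lysosomal nuclease, completed the list of those called higher. Of 12 tested genes of the cholesterol handling list only Apoe was called higher, with list medians of 0.33 and 0.38. Of 13 tested genes of apoptotic cell uptake only Cd36 was called higher, with list medians of -0.28 in both libraries. With genes at 0 set to their bound its deletion median was -0.19. The medians over all genes measured were -0.20 and -0.14. Both called genes are also in the lipid-associated list, and nothing is read from such counts beside the 3.46% of all genes.

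Of 25 lysosomal hydrolases and cofactors tested in both libraries, among 27 measured, 6 were called higher and 0 lower, against 3.46% and 4.03% of all genes. Among them were the cathepsins Ctsb, Ctsd and Ctsl, the acid lipase Lipa and the sphingolipid activator Psap. Ctsd, an aspartic protease, had the widest gap, at 4216 against 525 CPM and 3408 against 464 CPM. Ctsb was the most abundant, at 10384 against 4913 CPM and 11019 against 5242 CPM.

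Of 22 tested genes of the lysosomal membrane and proton pump, among 24 measured, Cd63 and Atp6v0d2 were called higher and none lower, and nothing is read from so small a count beside the 3.46% of all genes. Atp6v0d2, a pump subunit well known from osteoclasts, was at 118 against 5.73 CPM and 87.6 against 6.54 CPM, still far below the 1736 and 1505 CPM of the osteoclast gate. Of 9 tested MiT/TFE factors and response genes, among 13 measured, none was called in both libraries. In the control alone 2 were called lower and in the deletion library alone 1. These are too few to read against the 8.62% and 7.09% of all genes called lower in each library. Mitf was at 42.8 against 33.9 CPM and 45.4 against 48.9 CPM, and Tfe3 at 38.2 against 44.4 and 48.7 against 53.0 CPM.

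Of 16 tested genes of the antioxidant response, among 17 measured, 5 were called higher and 0 lower, again beside 3.46% and 4.03% of all genes. Gclm, the modifier subunit of the enzyme that limits glutathione synthesis, was at 665 against 76.9 CPM and 497 against 63.7 CPM, and its catalytic partner Gclc at 141 against 43.7 and 114 against 43.4 CPM. Prdx1, a peroxiredoxin, was at 3479 against 1001 CPM and 2486 against 895 CPM. Gsr and Cat, which encode glutathione reductase and catalase, were the others. Nfe2l2, the factor NRF2 that drives many of these genes, was at 243 against 428 CPM and 243 against 394 CPM and was not called.

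**Figure D3:**
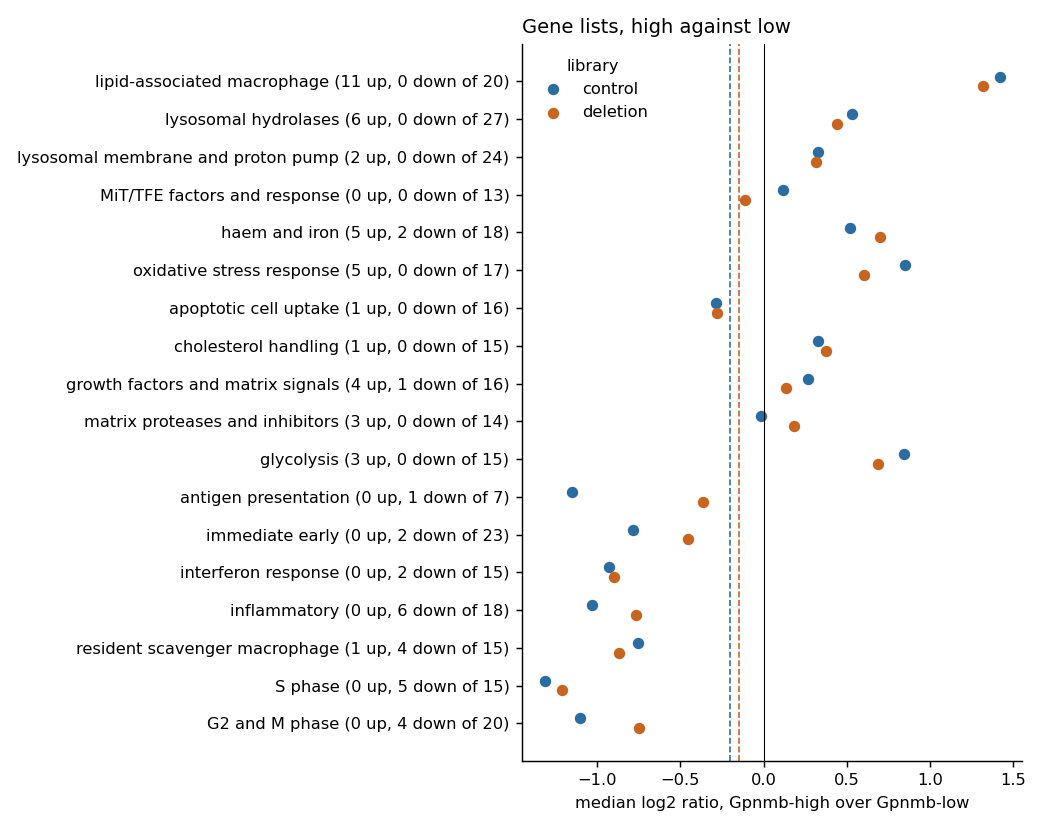
Median log2 ratio of Gpnmb-high over Gpnmb-low macrophages for each gene list in the control (blue) and deletion (orange) library, with dashed lines at the medians over all genes measured. Counts after each name are members called higher (up) or lower (down) in both libraries of those measured in both, and the lipid-associated list lies farthest to the right at 1.42 and 1.32.

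Promoters of some genes that were higher together, and of Gpnmb, a gene of the rule, are shown. Haem breakdown, the antioxidant response and lysosomal genes each have a known regulatory motif. Hmox1, the gene of haem breakdown, had no window to search. RefSeq promoter windows (GRCm38.p6, 250 bases before the start site and 50 from it on) were matched by symbol for 83 of the 116 genes called higher and 109 of the 135 called lower. Capitals mark matches, on either strand, to TGACNNNGC, the core of the antioxidant response element, to TCACGTG, an E-box of MiT/TFE factors, to TCATGTG, their M-box, and to TGAGTCA, the AP-1 site. The windows are those of Ctsd (chr7:142387778-142388077, minus strand), Gclm (chr3:122245307-122245606, plus strand), Prdx1 (chr4:116685349-116685648, plus strand) and Gpnmb (chr6:49036268-49036567, plus strand), each written 5′ to 3′ along its gene.
Ctsd: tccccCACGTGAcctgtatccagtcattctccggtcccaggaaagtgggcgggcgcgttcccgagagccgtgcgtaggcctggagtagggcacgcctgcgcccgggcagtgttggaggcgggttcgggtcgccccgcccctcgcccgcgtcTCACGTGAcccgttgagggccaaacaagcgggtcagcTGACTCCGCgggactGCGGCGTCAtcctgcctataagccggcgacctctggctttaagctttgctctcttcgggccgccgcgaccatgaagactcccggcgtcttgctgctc
Gclm: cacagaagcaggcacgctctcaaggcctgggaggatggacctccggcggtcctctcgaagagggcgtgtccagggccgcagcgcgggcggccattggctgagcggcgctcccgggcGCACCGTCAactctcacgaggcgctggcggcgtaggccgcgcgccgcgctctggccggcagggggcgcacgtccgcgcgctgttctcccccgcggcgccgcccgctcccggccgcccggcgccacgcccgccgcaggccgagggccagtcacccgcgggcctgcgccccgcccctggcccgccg
Prdx1: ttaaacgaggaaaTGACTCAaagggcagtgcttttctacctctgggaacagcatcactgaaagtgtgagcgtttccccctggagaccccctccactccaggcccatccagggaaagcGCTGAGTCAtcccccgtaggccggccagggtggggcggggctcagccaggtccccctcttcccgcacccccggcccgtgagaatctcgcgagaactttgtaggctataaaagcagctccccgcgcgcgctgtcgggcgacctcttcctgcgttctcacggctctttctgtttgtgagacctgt
Gpnmb: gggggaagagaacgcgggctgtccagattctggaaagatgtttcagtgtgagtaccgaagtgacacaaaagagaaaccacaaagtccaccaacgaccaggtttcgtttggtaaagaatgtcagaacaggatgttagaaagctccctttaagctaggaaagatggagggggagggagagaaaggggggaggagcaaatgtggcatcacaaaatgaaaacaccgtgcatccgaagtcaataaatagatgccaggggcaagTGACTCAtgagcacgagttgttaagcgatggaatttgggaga

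In the Ctsd window an E-box lay at -245, a palindromic one, matched on both strands, at -99 and -98, and antioxidant cores at -62 and -47, all counted from the start site to the first base of the match. Gclm had an antioxidant core at -134. Prdx1 had an AP-1 match at -237 and a second at -131 that overlaps an antioxidant core at -133. The Gpnmb window held an AP-1 match at 9, past the start site, and no match to the E-box or M-box. Each window shown held a match, whereas those of Spp1, Cd36, Cd9, Adam8, Lgals3, Lipa, Ftl1 and Cd63, also called higher, held none. Among genes called lower, Ccn1, Itga9, Egr2 and Smagp had an antioxidant core in a window.

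Across all 32851 windows the antioxidant core was present in 12.4%, and in 16.4% of the 110 windows of genes called higher and 16.4% of the 140 of genes called lower. The E-box was present in 3.77% of all, 5.45% of higher and 4.29% of lower windows, and the M-box in 3.77%, 0.909% and 4.29%. AP-1 matches were present in 5.20% of all, 11.8% of higher and 5.0% of lower windows. Several windows can belong to 1 gene, and a match in these letters is not evidence of binding.

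Of 10 tested growth factors and matrix signals, among 16 measured, 4 were called higher and 1 lower, beside 3.46% and 4.03% of all genes. The list medians were 0.26 and 0.13, against -0.20 and -0.14 over all genes measured. Igf1, insulin-like growth factor 1, was at 888 against 154 CPM and 824 against 120 CPM, and Pdgfa and Fn1, a growth factor for mesenchyme and the matrix protein fibronectin, were also called higher. Igfbp4, which binds insulin-like growth factors, was lower at 175 against 830 CPM and 198 against 888 CPM. Of 9 tested matrix proteases and inhibitors Mmp19, Adam8 and Timp2 were called higher and none lower, with list medians of -0.02 and 0.18. Of 10 tested glycolytic genes Aldoa, Pgam1 and Pkm were called higher and none lower, with list medians of 0.84 and 0.69. Other genes among the 15 with the largest ratios were Rnf128, a ubiquitin ligase, Mgst1, a glutathione transferase of membranes, and Syngr1 and Lhfpl2, which encode membrane proteins.

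Several chemokine genes and some resident macrophage genes were called lower. Of 17 inflammatory genes tested in both libraries, among 18 measured, 6 were called lower (4.03% of all genes) and 0 higher, all of them chemokines. Ccl2, which draws monocytes, was at 760 against 2535 CPM in control and 983 against 2588 CPM in deletion cells. Ccl7 was at 236 against 1554 and 441 against 1678 CPM, with 54.4% of the deletion UMIs in 1 cell. Cxcl10, an interferon-driven chemokine, was at 154 against 747 and 247 against 1039 CPM. The cytokine Tnf, at 717 against 748 CPM and 604 against 846 CPM, and Il1b, at 173 against 268 CPM and 279 against 246 CPM, were not called.

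Of 12 tested genes of resident scavenger macrophages, among 15 measured, 4 were called lower and 1, Igf1, higher, beside 4.03% and 3.46% of all genes. The list medians were -0.75 and -0.87, or -0.63 in the deletion library with genes at 0 set to their bound. Cd163 had 3 UMIs in the control Gpnmb-high cells, or 3.47 against 96.3 CPM, a ratio of 0.0361 (0.00741 to 0.106). It had none in the deletion cells against 85.7 CPM in Gpnmb-low cells, which is at least 8.8-fold lower with a floor of 3 UMIs over the group. Lyve1, a hyaluronan receptor, was at 6.95 against 183 CPM and 55.2 against 151 CPM, F13a1, a clotting factor subunit, at 398 against 951 and 422 against 921 CPM, and Pf4, a platelet-type chemokine, at 738 against 1986 and 850 against 1834 CPM. Mrc1, the mannose receptor and a gene of the rule, was at 339 against 1610 CPM and 351 against 1664 CPM.

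Some cell cycle genes were called lower as well. Of 8 tested S phase genes, among 15 measured, Mcm3, Mcm4, Mcm5, Rrm1 and Uhrf1 were called lower and none higher. Of 12 tested genes of G2 and M phase, among 20 measured, Mki67, Ccnb2, Tpx2 and Hmgb2 were called lower and none higher. Over all genes 4.03% were called lower and 3.46% higher. Mki67, a marker of cycling cells, was at 68.3 against 150 CPM and 71.4 against 162 CPM. After thinning to 1900 UMIs, at least 2 UMIs of the G2 and M list were found in 21.9% of Gpnmb-high and 52.4% of Gpnmb-low control cells and in 30.8% and 47.3% in the deletion library, while the shares before thinning were 71.2% and 83.4%, and 58.1% and 76.3%. The thinned intervals were 17.0 to 47.6% and 42.5 to 52.2% in the deletion library and so overlap, and 12.5 to 34.0% and 47.7 to 57.1% in the control.

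Of 20 tested immediate early genes, among 23 measured, 2 were called lower, too few to read against the 4.03% of all genes, Egr2 at 40.5 against 376 CPM and 51.9 against 236 CPM, and Btg2. Only 3 of 15 interferon genes could be tested, too few to read against the 4.03% of all genes, and of these Irf1 and Ifitm3 were called lower. Cd86, a costimulatory receptor, was called lower among 5 tested genes of antigen presentation, whose class II members were rare, with H2-Aa at 1.16 against 20.8 CPM in control and 0 against 2.41 CPM in deletion cells. Others among the 10 lowest ratios were Tspan13, Ptgs1, Plscr1, Smagp, Ccn1, Itga9 and Gbp7.

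**Figure D4:**
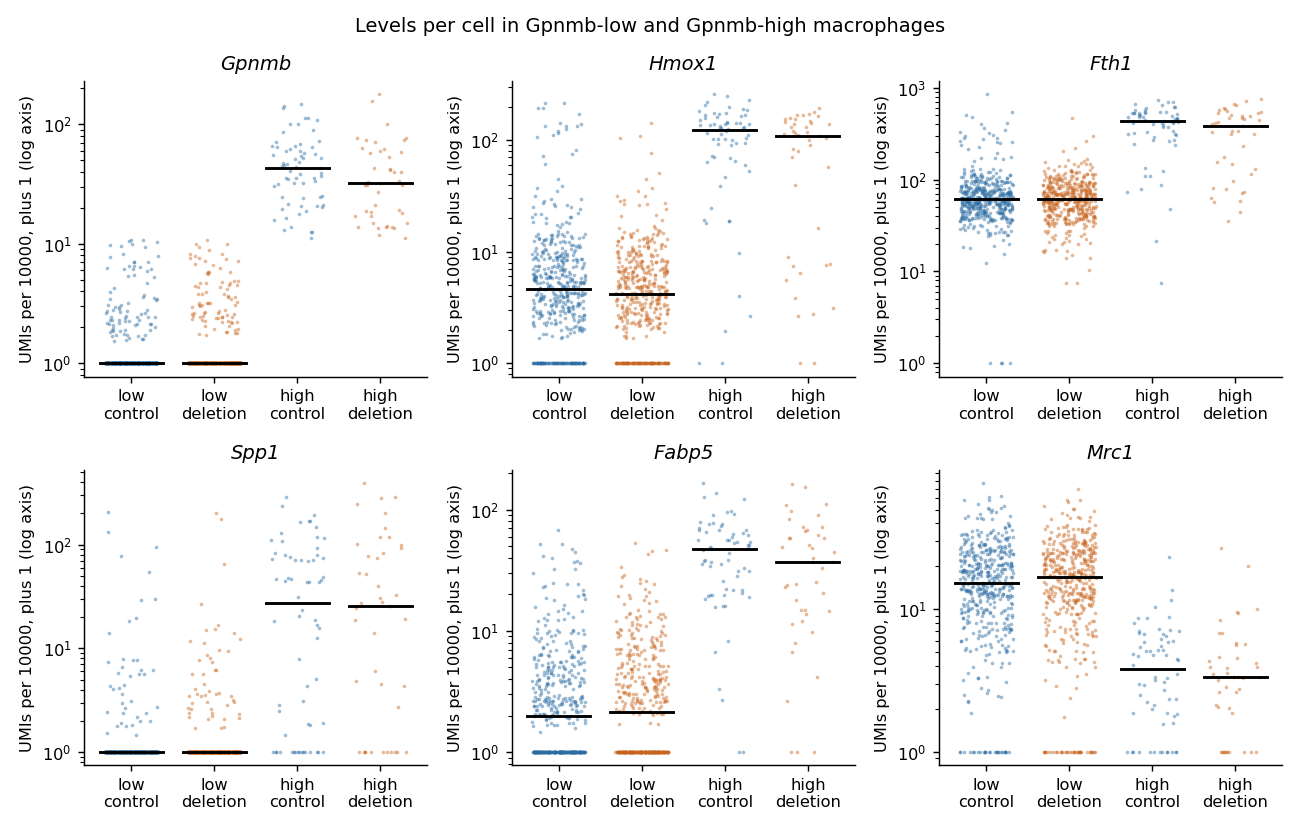
Level of 6 genes in each Gpnmb-low and Gpnmb-high macrophage of the control (blue) and deletion (orange) library, as UMIs per 10000 plus 1 on a log axis, with a black bar at the median. Hmox1 and Fth1 medians are far higher in Gpnmb-high cells, with a scatter of low cells below them, and Spp1 has no UMI in 16 of 66 and 11 of 43 of them.

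Gpnmb-high cells differed among themselves in Hmox1. It was at or over 20 UMIs per 10000 in 56 of 66 control and 30 of 43 deletion cells and under 20 in 10 and 13, a limit set after the values were seen, with 6 and 2 cells lying between 10 and 40. The 13 deletion cells under the limit had Fth1 at 8389 CPM against 46557 CPM in the other 30, Spp1 at 1905 against 8766 CPM, Ctsd at 1077 against 4289 CPM and Gpnmb at 2568 against 5242 CPM. The 10 control cells under it had Fth1 at 18256 against 45613 CPM and Spp1 at 2679 against 5808 CPM, with Gpnmb at 5284 against 5213 CPM. C1qa was at 1041 against 890 CPM and 1027 against 970 CPM. The cells under the limit were shallower, at a median of 8668 against 13509 UMIs in control and 5944 against 8078.5 in deletion cells, and the part of depth was not tested. In the other direction 37 control and 18 deletion Gpnmb-low macrophages had Hmox1 at or over 20 per 10000.

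Levels went by steps with Gpnmb. In macrophages with no Gpnmb UMI Hmox1 was at 699 CPM in control and 462 CPM in deletion cells, and between 5 and 10 Gpnmb UMIs per 10000, just outside the rule, at 5380 and 2246 CPM. From 10 to 20, just inside it, Hmox1 was at 9362 and 7300 CPM, and at 40 and over at 11951 and 11100 CPM. Fabp5 went from 220 and 262 CPM with no Gpnmb UMI to 6717 and 7788 CPM at 40 and over, and Mrc1 from 1732 and 1741 CPM to 249 and 265 CPM. Spp1 in the control was at 4820, 6161 and 5277 CPM in the 3 bins inside the rule, so it did not climb from the second to the third. The bins from 10 to 20 and from 20 to 40 held 13 and 19 control and 16 and 10 deletion cells, and the deletion bins from 5 to 10 and at 40 and over held 16 and 17 cells, all fewer than 20.

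**Figure D5:**
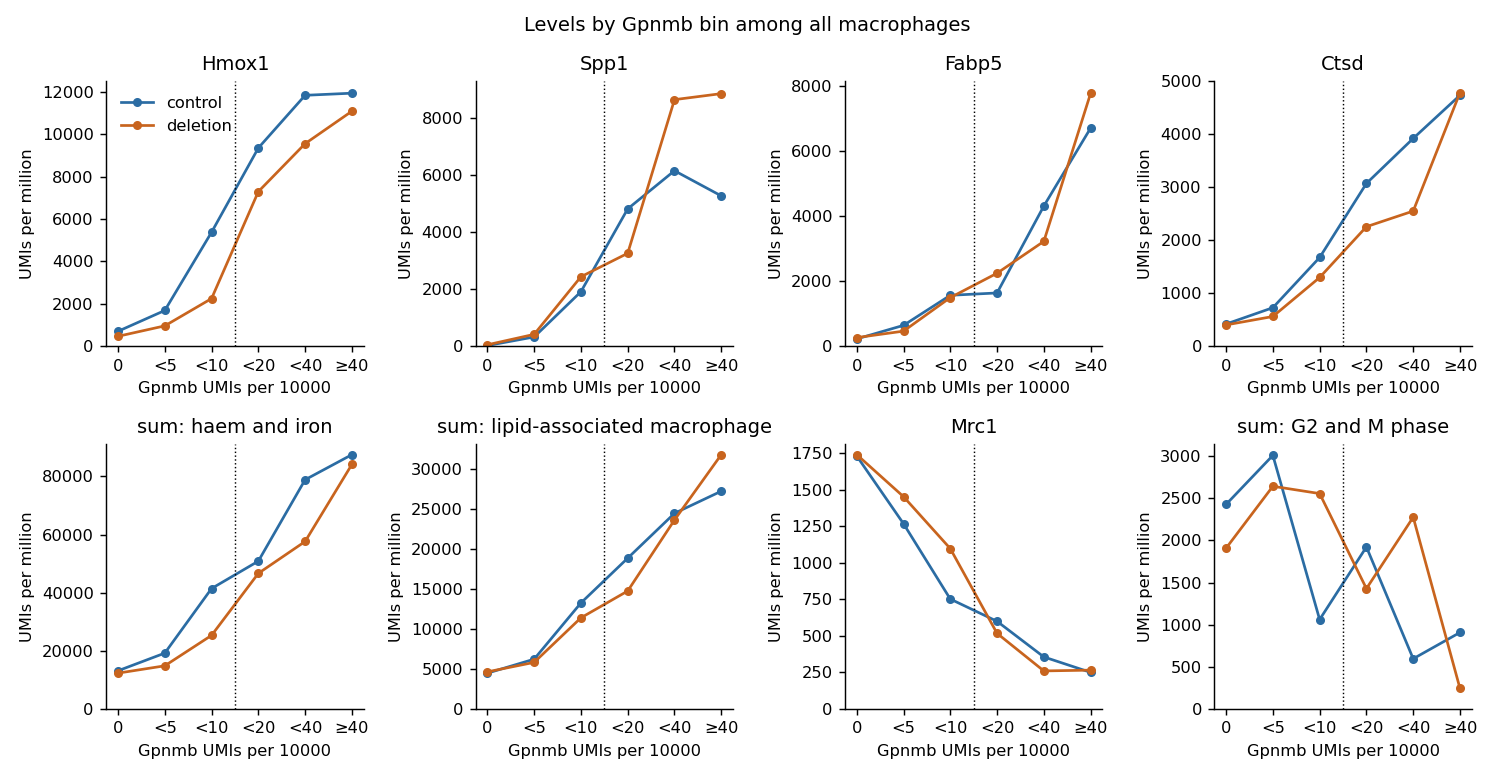
Summed level (CPM) of single genes and of list sums among all macrophages, by bins of Gpnmb UMIs per 10000, in the control (blue) and deletion (orange) library. The dotted line is the limit of the rule at 10, and Hmox1, Fabp5 and Ctsd stand higher in the bin at 40 and over than in the bin with no Gpnmb UMI, while Mrc1 stands lower, at 249 and 265 CPM.

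The 8 genes whose level per cell went most closely with Gpnmb over all macrophages, by the lower of the libraries' Spearman correlations among 2521 genes, were Lgals3 (0.47), Fabp5 (0.45), Spp1 (0.42), Ctsb (0.41), Fth1 (0.38), Ftl1 (0.38), Cstb (0.35) and Ctsd (0.35). The cells of a library share its preparation and differ in depth. Among the Gpnmb-high cells alone, the lower of the correlations was highest for Fabp5 of these 8, at 0.64 over 66 control and 0.69 over 43 deletion cells, whereas Spp1 stood at 0.19 and 0.29. Ferritin chains went with each other at 0.76 and 0.83 and Fth1 with Hmox1 at 0.59 and 0.76.

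Between libraries, the rule did not use the genotype, but 1 library a group leaves no test. Of 3275 genes tested within Gpnmb-high macrophages, 51 (1.56%) were called higher and 30 (0.916%) lower in the deletion library by the same limits. Within Gpnmb-low macrophages, which are many more cells, 2 (0.0577%) and 5 (0.144%) of 3466 were called. With each cell thinned to 1900 UMIs before the rule was applied, the numbers in Gpnmb-high cells were 106 and 59, and only 4 and 2 of the genes were shared with the first lists. Scaled by the median count ratio the numbers were 44 and 41, so that higher calls were 51.8% of calls in place of 63.0%. Without the cell richest in each gene, an alternative chosen after seeing the data, 29 were higher and 53 lower, so that higher calls were 35.4%.

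Several of the named genes rested on few cells. Cxcl1, a chemokine for neutrophils, was at 824 CPM in the deletion and 215 CPM in the control cells, a log2 ratio of 1.91, with UMIs in 17 of 43 and 18 of 66 cells and 29.1% of the deletion UMIs in 1 cell. Lyve1 was called higher at 55.2 against 6.95 CPM, but all 17 of its deletion UMIs lay in 1 cell. Amelx had the lowest ratio at 3.25 against 56.7 CPM, with 85.7% of the control UMIs in 1 cell.

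Slc36a2, an amino acid transporter, was at 16.2 CPM in the deletion against 64.8 CPM in the control cells, with UMIs in 3 of 43 and 27 of 66 cells, and at 0 and 0.239 CPM in Gpnmb-low cells. Gtf2h2, a subunit of a general transcription factor, was at 29.2 against 88.0 CPM, in 9 and 43 cells. Cd81, a tetraspanin, was at 29.2 against 83.4 CPM, in 6 and 33 cells. Counts of cells with a UMI also depend on depth, at a median of 6786 UMIs in deletion against 13009.5 in control Gpnmb-high cells. The part of depth in these counts was not tested. The others named by size were Slc4a7, Clec12a, Slc49a4, Cd24a, Nedd4, Gas7 and Zc3h12c among the higher, and Fbxo33, Ccndbp1, Washc3, Tpra1, Ypel3 and Mfhas1 among the lower.

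No member of the lipid-associated, lysosomal, haem and iron, antioxidant and glycolysis lists was called between the libraries within Gpnmb-high cells. Over all genes only 1.56% were called higher and 0.916% lower, so nothing is read from the lack of calls in these lists. The medians of these lists between libraries were -0.18 for glycolysis, -0.16 for the lipid-associated list, -0.12 for the hydrolases and -0.11 for haem and iron. The lysosomal membrane and proton pump list was at -0.002 and the antioxidant list at 0.07, against 0.05 over all genes measured. The inflammatory list had a median of 0.37 with 15 of 19 members above 0 and Cxcl1 called. In Gpnmb-low cells its median was 0.15, and 15 of 18 members were above 0 there too. The immediate early list had a median of 0.35 with 18 of 23 above 0 and none called. In Gpnmb-low cells its median was 0.00, with 12 of 23 above 0. Over all genes measured, 5332 of 9829 were above 0 in Gpnmb-high and 4793 of 9897 in Gpnmb-low cells. With 1 library a group, the shifts of these lists were not tested. Ctsk, a gene of the rule, was at 123 against 19.7 CPM, and 44.7% of its deletion UMIs lay in 1 cell.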

How the data were processed

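Single-cell RNA was measured in 1 control and 1 deletion library. The authors deposited whole-number UMI counts per gene and barcode, with no normalization. STARsolo and the mm10 build are named in the submitters' processing notes, without versions or a cell calling step. The files list 31253 features, of which 48 have a repeated symbol, and gene positions come from the GENCODE annotation of the same build.

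Counts were summed over the cells of a gate and library with Python 3.11.15, numpy 2.4.6, scipy 1.17.1 and pandas 2.3.3, divided by their total and scaled to 1000000 (CPM). No p-value was computed. Log2 ratios use a pseudocount of 5 CPM, and lists count genes with at least 5 CPM in either group. Intervals are 95% Poisson, Clopper-Pearson or conditional binomial intervals and cover counting error only. Doublets were marked with Scrublet in scanpy 1.11.5 and kept. Thinning drew 1900 UMIs per cell without replacement. The call rule was also run on simulated counts, drawn without spread between cells or animals, and the outcome is not reported here.

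The cells and the gene lists were chosen with earlier results of these data known. Genes were named by rank: the 15 higher and 10 lower with the largest ratio in the weaker library, 10 each way between libraries, and called members of each list, without mitochondrial, ribosomal protein and unnamed genes. A few genes that these ranks or lists include are not reported here. Figures were drawn with matplotlib 3.10.9. Alternatives covered the Gpnmb limit, cell filters, doublets, thinning, other-cell markers, sex-linked transcripts, pseudocount, minimum level, scaling and weighting of cells. Labels give both libraries replicate number 1. How many germs went into each is not stated in the labels.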

Additional observations from a re-analysis of the deposited data

Results flagged for a closer look

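Hbb-bt, a beta chain of adult haemoglobin, was called in opposite directions in the libraries. Its log2 ratio of Gpnmb-high over Gpnmb-low macrophages was -1.03 in the control, at 42.8 against 92.9 CPM, and 3.62 in the deletion library, at 77.9 against 1.72 CPM. It was the only gene called opposite ways among 3350, and the difference between the libraries was not tested. Of the 1920 haemoglobin UMIs of the control Gpnmb-low cells 1722 lay in 1 cell, and 198 remained without it. Hbb-bt and Hbb-bs are near-identical copies, so the split of UMIs between them is uncertain.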

How the results depend on the processing

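No paired analysis was possible because each group is 1 library. Of the named genes, 7 of 25 between Gpnmb-high and Gpnmb-low cells and 12 of 20 between libraries kept their direction but were no longer past the limits after thinning. With a Gpnmb limit of 5 per 10000 the shares were 15.9% and 11.8%, 77 genes were lower in Gpnmb-high cells and 14 lower in the deletion library. With a limit of 20 the deletion share was 5.41%, and 84 genes were higher and 64 lower in deletion cells. After thinning to 1900 UMIs these were 106 and 59, and 58 genes were lower in Gpnmb-high cells. Among Xist cells the control share was 18.4%, the difference between libraries -11.9 points, 79 genes were lower in Gpnmb-high cells and 121 were higher and 97 lower in deletion cells. Among Y-linked cells the last pair was 284 and 82. Called in the control library alone, 175 genes were higher and 306 lower in Gpnmb-high cells, and in the deletion library alone 180 and 257. A pseudocount of 1 CPM gave 46 genes lower in the deletion library. Without a minimum level 180 and 234 genes were higher and lower in Gpnmb-high cells and 233 and 100 in the deletion library. Scaling by the median count ratio left 82 lower in Gpnmb-high cells. A total without mitochondrial, ribosomal protein, haemoglobin and rule genes gave 87 higher in the deletion library. Without the cell richest in each gene, an alternative chosen after seeing the data, 219 genes were lower and 93 higher in Gpnmb-high cells, so that higher calls were 29.8% of calls, and 29 were higher and 53 lower in deletion cells. Between libraries Lyve1 reversed to -1.41 with the limit of 20, -0.753 after thinning, -1.65 among Xist cells, -1.06 among Y-linked cells and -0.957 without its richest cell. Thinning also reversed Clec12a (-0.846), Zc3h12c (-0.213), Washc3 (0.269) and Ypel3 (0.0316), Xist cells Cd24a (-2.19) and Y-linked cells Nedd4 (-0.74). Between Gpnmb-high and Gpnmb-low cells, Fabp4 among Y-linked cells reversed to -0.0394. The cause was not tested for any of these. At the shallowest, in the deletion Gpnmb-high cells, 3 UMIs stand for 9.74 CPM, and lower levels rest on fewer UMIs than that.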
